A study of Mus musculus with 8 samples.

Results

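The glucocorticoid receptor gene Nr3c1 and 9 genes that glucocorticoids are known to regulate (Fkbp5, Tsc22d3, Sgk1, Zbtb16, Errfi1, Klf9, Pdk4, Mt1 and Mt2) were followed in mouse ovarian tumours after a single treatment with a JAK inhibitor. The genes were chosen by symbol, and every array spot carrying one of these 10 symbols was taken, which gave 12 of the 39429 probes on the array. Nr3c1 and Klf9 had 2 probes each and the others 1. All 12 probes passed the filter on dim signal, and none was saturated on any array.

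The tumours came from female C57BL/6 mice that carry MISIIR-TAg, a transgene in which the promoter of the Amhr2 gene, active in reproductive tract tissue, drives the SV40 large T antigen. Both groups carried the transgene and had tumours of about 500 mm3. The 4 vehicle mice received 0.5% hypermellose with 0.1% Tween 80, and the 4 AZD1480 mice received 30 mg/kg AZD1480, an inhibitor of the kinases JAK1 and JAK2, in the same carrier. Tumour tissue was collected 6 h later, 1 tumour per mouse, and total RNA from the whole tissue was hybridised to 1 Agilent one-colour array each, with 2 arrays of each group on each of 2 slides. Since this was bulk tissue, fewer cells of a type and less RNA per cell cannot be told apart.

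Glucocorticoids enter the cell and bind the glucocorticoid receptor, which is held by a chaperone complex in the cytoplasm and moves to the nucleus on binding. There it acts as a dimer on short palindromic DNA elements near its target genes, and it also restrains inflammatory transcription factors through protein contacts. Several of its direct targets feed back on the signal: FKBP5 lowers the hormone affinity of the receptor complex, and TSC22D3 (also called GILZ) carries part of the anti-inflammatory action. The metallothioneins MT1 and MT2 bind zinc and copper and are induced by metals, through the factor MTF1, as well as by glucocorticoids.

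Promoter windows of 250 bases before to 50 bases after annotated starts, from RefSeq on GRCm38.p6, were found for 8 of the 10 genes, in 16 windows. They were searched on both strands for the palindromic glucocorticoid response element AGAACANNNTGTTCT, its looser core GNACANNNTGTNC, the single arm AGAACA, the metal response element TGCGCNC or TGCACNC, and the STAT dimer site TTCNNNGAA. The first 2 overlap each other and the arm. The 250 bases before 3 starts are shown. Of these, 1 Sgk1 window holds the full palindrome. Mt1 and Mt2, the pair of members with the highest correlation across the tumours, both hold metal response elements. Capitals mark the full palindrome in Sgk1 (chr10:21993640-21993889, plus strand) and the metal response elements in Mt1 (chr8:94178839-94179088, plus strand) and Mt2 (chr8:94172368-94172617, plus strand).
Sgk1: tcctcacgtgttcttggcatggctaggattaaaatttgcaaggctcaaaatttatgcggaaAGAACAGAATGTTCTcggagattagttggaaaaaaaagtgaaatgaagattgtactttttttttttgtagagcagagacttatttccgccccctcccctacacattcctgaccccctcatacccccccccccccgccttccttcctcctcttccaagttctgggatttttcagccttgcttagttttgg
Mt1: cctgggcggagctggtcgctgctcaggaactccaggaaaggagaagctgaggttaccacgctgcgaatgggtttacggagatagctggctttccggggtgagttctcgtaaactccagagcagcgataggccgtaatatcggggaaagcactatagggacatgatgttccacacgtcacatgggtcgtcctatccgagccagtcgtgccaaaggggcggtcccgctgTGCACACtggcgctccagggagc
Mt2: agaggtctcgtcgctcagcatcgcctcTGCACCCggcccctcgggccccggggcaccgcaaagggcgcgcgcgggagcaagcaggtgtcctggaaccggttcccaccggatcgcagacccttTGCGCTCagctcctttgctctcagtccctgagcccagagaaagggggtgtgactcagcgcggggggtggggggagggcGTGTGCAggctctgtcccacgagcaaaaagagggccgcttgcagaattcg
The Sgk1 palindrome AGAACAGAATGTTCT lies at -189 to -175, with -1 the last base before the start. Only 3 of 32851 mouse promoter windows (0.00913%) hold it. The core GNACANNNTGTNC matched within the Sgk1 palindrome and once in Mt1, as GGACATGATGTTC at -94 to -82, and is held by 0.475% of windows. Metal response element matches numbered 3 in the Mt1 window, at -23 to -17 and at 2 to 8 and 20 to 26 after the start, and 4 in the Mt2 window, at -223 to -217, -128 to -122, -50 to -44 and 4 to 10. Another Sgk1 window held 1, at 11 to 17 after its start. That element is common, since 25.7% of windows hold at least 1. The STAT dimer letters were present in windows of Tsc22d3, Sgk1 and Klf9 and in 8.3% of all windows, and the single arm AGAACA in windows of Tsc22d3 and Sgk1 and in 19.0% of all windows. The windows of Fkbp5, Errfi1 and Pdk4 held none of the letters searched. These matches describe the sequence and do not show binding.

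Levels are given as the log2 of the processed intensity minus the 75th percentile of the array, so that 0 is the 75th percentile. A level depends on its probe and is compared between tumours, not between probes. The processed intensity of the member probes ran from 398 to 615640 apart from 1 Klf9 probe. That probe, A_55_P1994992, lay between 22.7 and 126 and was well above background on 4 of 4 vehicle and 2 of 4 AZD1480 arrays. Slide 1 was brighter, with a 75th percentile of 4706 to 5795 against 1587 to 2783 for slide 2. With 4 arrays per group, the number of arrays limits the precision.

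One tumour stood apart. AZD1480 replicate 1 had a median correlation of 0.892 with its own group, across probes, against 0.955 to 0.977 for the other arrays. The summed level of 6 of 6 listed ciliated cell markers was 36.7 to 58.6 in vehicle and 1.83 to 44.8 in AZD1480, with the value of 1.83 in that tumour. The summed level of 8 of 8 macrophage markers was lowest there too (11.9, against 22.2 to 28.4 in vehicle and up to 57.9 in AZD1480). The 57.9, in AZD1480 replicate 4, came mostly from Itgam, at 5.61 in log2 against 2.98 to 4.00 in vehicle. The mean log2 level of the 8 markers relative to vehicle was -0.24 in that tumour and -1.66 in AZD1480 replicate 1. The sum of 6 of 6 fibroblast markers was also lowest in AZD1480 replicate 1 (11.1, against 25.4 to 38.8 in vehicle and up to 31.5 in AZD1480). Col1a1, Col3a1, Dcn and Lum lay below their vehicle ranges there, and Col1a2 and Pdgfra lay within theirs. The sum of the granulosa and luteal markers was highest in AZD1480 replicate 1 (158, against 12.5 to 63.2 in vehicle and 11.1 at the lowest in AZD1480). This was over 4 of 9 listed genes, with Amh, Fshr, Cyp19a1, Cyp11a1 and Lhcgr below the signal filter. Amhr2 (6.93 in log2) and Inha (4.54) lay above their vehicle ranges there, and Foxl2 and Star lay within theirs. The 8 of 8 epithelial tumour markers passed the signal filter, Cdh1 being well above background on 3 of 4 AZD1480 arrays and the others on all arrays. Their sum was 42.0 to 122 in vehicle and 34.1 to 80.0 in AZD1480, with the lowest value again in AZD1480 replicate 1. Vehicle replicate 3 had an adipocyte marker sum of 33.9, against 0.194 to 0.891 in the other vehicle tumours and 0.072 to 0.323 in AZD1480, over 4 of 6 genes with Adipoq and Cidec below the filter. The part of these differences in the results that follow was not tested beyond leaving out each array.

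The receptor itself was measured by 2 probes to its minus-strand gene on chromosome 18 (mm9, 39571641 to 39571700 for A_55_P1967885 and 39574183 to 39574242 for A_52_P254174). With A_55_P1967885, Nr3c1 was nearly the same in the 4 vehicle tumours, at 2.47, 2.38, 2.52 and 2.42, and was at 1.36, 2.23, 2.43 and 1.75 in AZD1480 replicates 1 to 4. AZD1480 replicates 1, 2 and 4 lay below all vehicle tumours and replicate 3 lay among them. The group means were 2.45 ± 0.062 (SD, n = 4) and 1.94 ± 0.48 (SD, n = 4). The log2 difference of -0.51 ± 0.25 (limma's moderated SE) had the smallest p of the 12 probes, 0.0738, and an adjusted p of 0.954, and its 95% interval ran from -1.07 to 0.062. The second probe, A_52_P254174, was at -2.17, -2.27, -1.45 and -1.46 in vehicle and at -3.46, -2.41, -1.59 and -1.88 in AZD1480. Here the 2 slides differed, slide 2 being higher by 0.98 (unadjusted p = 0.00635, adjusted p = 0.199 for slide), and the AZD1480 tumours ranged from the lowest of all to within the vehicle range. The difference was -0.50 ± 0.43 (adjusted p = 0.954), so both probes had nearly the same mean difference. It was negative within both slides for both probes (-0.63 and -0.38 for A_55_P1967885, -0.72 and -0.28 for A_52_P254174). The differences were -0.31 and -0.12 without AZD1480 replicate 1. Without AZD1480 replicate 3 the first probe was at -0.67, with an unadjusted limma p of 0.0242 and an adjusted p of 0.528. That tumour was the highest of the AZD1480 group for this probe, so leaving it out could only make the difference more negative.

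Fkbp5, the co-chaperone through which the receptor limits its own hormone binding, was at 1.86, 0.71, 1.36 and 0.95 in vehicle replicates 1 to 4 and at 2.44, 0.53, 1.54 and 1.11 in AZD1480 replicates 1 to 4 (probe at chromosome 17, 28536060 to 28536119, mm9). The AZD1480 tumours held both the highest and the lowest value, and the groups overlapped fully. The difference was 0.18 ± 0.43, with a 95% interval of -0.81 to 1.18 (adjusted p = 0.974). It was at -0.16 without AZD1480 replicate 1, the highest tumour.

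Tsc22d3, which encodes the leucine zipper protein GILZ, was bright in every tumour (chromosome X, 137074094 to 137074153, mm9). It was at 3.57, 4.33, 3.12 and 3.95 in vehicle and at 1.44, 3.14, 4.85 and 3.04 in AZD1480. AZD1480 replicate 3 had the highest and AZD1480 replicate 1 the lowest value of all 8 tumours, so the SD was 1.40 in AZD1480 against 0.52 in vehicle. The difference of -0.63 ± 0.66 was the most negative of the 12 probes (95% interval -2.15 to 0.90, adjusted p = 0.954). Without AZD1480 replicate 1 it was at -0.066, and without AZD1480 replicate 3 it was at -1.20 with an unadjusted limma p of 0.0440 and an adjusted p of 0.576. Leaving out replicate 3, the highest tumour, could only make the difference more negative.

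Sgk1, a kinase that regulates ion channels and cell survival, was at 0.56, -0.41, 0.39 and 0.97 in vehicle and at 1.15, 0.082, 0.64 and 0.032 in AZD1480 (chromosome 10, 21719507 to 21719566, mm9). Its highest value was again in AZD1480 replicate 1 and its lowest in vehicle replicate 2. The difference was 0.096 ± 0.36 (95% interval -0.74 to 0.93, adjusted p = 0.984), and it was at -0.13 without AZD1480 replicate 1. Errfi1, an inhibitor of the EGF receptor family, was at 0.99, 0.26, 1.35 and 1.62 in vehicle and at 1.27, 0.97, 1.68 and 1.22 in AZD1480 (chromosome 4, 150242886 to 150242945, mm9). It was the 1 of these genes besides Sgk1 that varied less among AZD1480 than among vehicle tumours (SD 0.29 against 0.59, and 0.53 against 0.58 for Sgk1). Its difference was 0.23 ± 0.31 (95% interval -0.49 to 0.95, adjusted p = 0.957).

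Zbtb16 varied most between tumours of the 10 genes, with an SD of 1.55 over the 8 arrays. This gene, which encodes the zinc finger repressor PLZF, was at 1.75, 1.60, -1.32 and 0.32 in vehicle and at -2.55, 0.41, 1.73 and 0.86 in AZD1480 (chromosome 9, 48462419 to 48462478, mm9). The 2 lowest tumours were AZD1480 replicate 1 and vehicle replicate 3, and the 2 groups shared the same upper end. The difference was -0.48 ± 1.03 with a 95% interval from -2.85 to 1.90 (adjusted p = 0.971), the widest of the 12 probes, and without AZD1480 replicate 1 it was at 0.41. Klf9, a Krüppel-like repressor that is a direct receptor target in many tissues, was at 1.53, 1.01, 0.16 and 1.15 in vehicle and at -0.40, -0.41, 1.97 and 0.49 in AZD1480 by probe A_65_P19780 (chromosome 19, 23240410 to 23240469, mm9). AZD1480 replicates 1 and 2 lay below all vehicle tumours and AZD1480 replicate 3 above them. The difference was -0.55 ± 0.56 (95% interval -1.85 to 0.75, adjusted p = 0.954). The dim second probe, A_55_P1994992, which the files name Klf9 on slide 1 only (chromosome 19, 23243231 to 23243290, mm9), was at -5.41, -6.06, -6.27 and -5.50 in vehicle and at -7.59, -7.52, -4.74 and -5.79 in AZD1480. It placed AZD1480 replicates 1 and 2 lowest and AZD1480 replicate 3 highest as the first probe did, with a difference of -0.60 ± 0.64 (adjusted p = 0.954). The size of that difference depended on the processing, being -0.028 with normexp, another background correction, and -0.31 in the authors' table. The first probe was at -0.53 in both. Without AZD1480 replicate 3 the Klf9 probes were at -1.07 and -1.16, with unadjusted p of 0.0281 and 0.0498 and adjusted p of 0.537 and 0.586. They were at -0.28 and -0.21 without AZD1480 replicate 1. Since AZD1480 replicate 3 was highest for both probes, leaving it out could only make their differences more negative.

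Pdk4, the kinase that shuts off pyruvate dehydrogenase when cells turn from glucose to fat, was at -0.76, -0.65, -2.00 and -1.07 in vehicle and at 0.54, -2.08, -0.47 and -1.69 in AZD1480 (chromosome 6, 5433441 to 5433500, mm9). AZD1480 replicate 1 was highest and AZD1480 replicate 2 lowest. The difference was 0.20 ± 0.60 (95% interval -1.18 to 1.58, adjusted p = 0.978), and it was at -0.29 without AZD1480 replicate 1.

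The metallothionein genes, neighbours on chromosome 8, were bright in every tumour. Mt1 was at 6.55, 6.50, 6.05 and 6.98 in vehicle and at 5.60, 6.06, 7.07 and 7.22 in AZD1480 (96704165 to 96704224, mm9). Mt2 was at 6.84, 6.81, 5.87 and 7.08 in vehicle and at 4.50, 6.28, 7.25 and 7.30 in AZD1480 (96697371 to 96697430, mm9). For both genes AZD1480 replicate 1 was lowest and AZD1480 replicates 3 and 4 were highest, with all vehicle tumours between. Mt1 differed by -0.035 ± 0.40 (95% interval -0.96 to 0.89, adjusted p = 0.994) and Mt2 by -0.32 ± 0.63 (95% interval -1.77 to 1.13, adjusted p = 0.970). Without AZD1480 replicate 1 they were at 0.26 and 0.30.

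**Figure D1:**
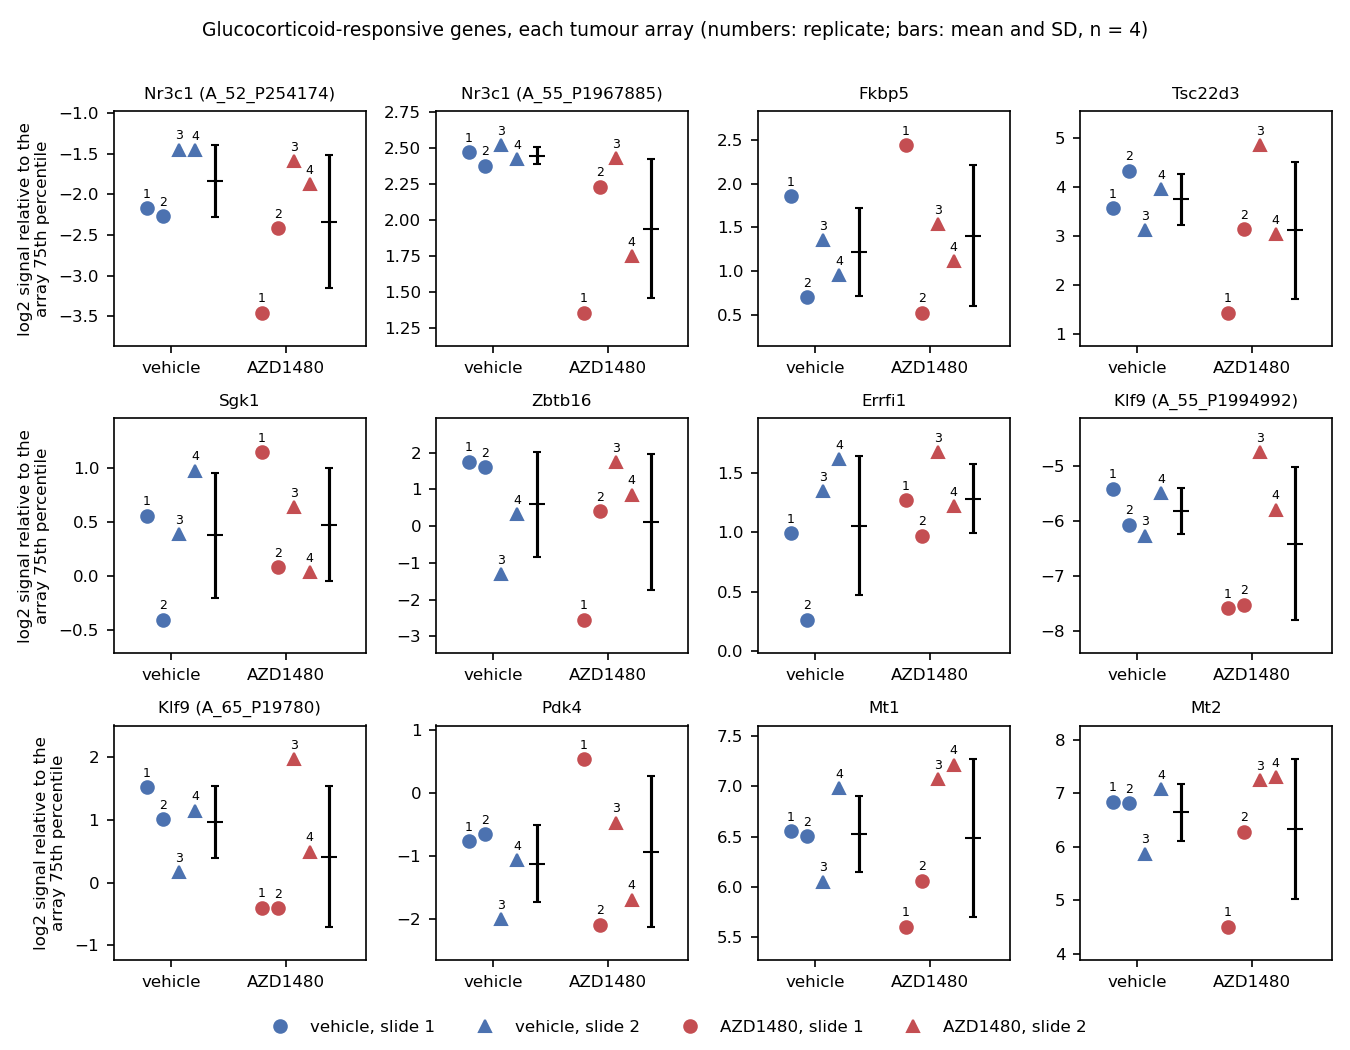
Log2 signal relative to the 75th percentile of the array for each of the 12 probes, 1 point per tumour, with vehicle in blue, AZD1480 in red, circles for slide 1, triangles for slide 2, the replicate number above each point, and the mean and SD (n = 4) as a bar. Nr3c1 by A_55_P1967885 spans 2.38 to 2.52 in vehicle and 1.36 to 2.43 in AZD1480, and AZD1480 replicate 1 is lowest for Tsc22d3, Zbtb16, Mt1 and Mt2 and highest for Fkbp5, Sgk1 and Pdk4.

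None of the 12 probes passed limma's test at an adjusted p under 0.05 (0 of 12, against 0% of the 28329 probes tested), and 0 of 12 had an unadjusted p under 0.05, against 3.59% of all probes. In 0 of 12 were the groups free of overlap, against 1.24% of all probes with AZD1480 lower and 1.35% with it higher, and 0 of 12 differed by 2-fold or more, against 6.6% of all probes. The adjusted p ran from 0.954 to 0.994 over the 12 probes, and the smallest over all probes was 0.732. In direction, 8 of 12 probes were lower in AZD1480, against 42.2% of all probes, and 4 were higher, against 57.8%. The median log2 difference was -0.40 over the 12 probes and 0.056 over all probes. Nr3c1 and Klf9 entered these counts and the median with 2 probes each, and all of those were lower. Probes of the same gene in the same tumours are not separate evidence, so these figures are not per gene. The intervals of the 12 probes reach from -2.85 to 1.90, so differences of more than 2-fold in either direction are within the interval of several of them. In simulated data of the same size, a log2 change of 1 had an unadjusted limma p under 0.05 for 68% of changed probes. It had an adjusted p under 0.05 for 17%, and a change of 2 gave 90% and 60%. The changed probes were drawn from all probes, with the same normal spread in both groups and no deviant tumour. The 12 probes had a larger median SD than all probes in both groups, so these shares do not apply to them.

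The spread among AZD1480 tumours was wider than among vehicle tumours for 10 of the 12 probes, against 71.8% of all probes. The median SD of the 12 probes was 0.97 in AZD1480 and 0.53 in vehicle, against 0.45 and 0.31 over all probes. AZD1480 replicate 1 held the lowest of the 8 values for 7 of the 12 probes and the highest for 3, and over all probes it held the lowest for 22.3% and the highest for 28.8%. AZD1480 replicate 3 held the highest value for 4 of the 12 probes and for 7.13% of all probes. Leaving out AZD1480 replicate 1 turned the sign of 6 of the 12 differences (Fkbp5, Sgk1, Zbtb16, Pdk4, Mt1 and Mt2). The count of lower probes was 8 with and without that tumour, but only 5 probes, those of Nr3c1, Tsc22d3 and Klf9, were lower in both cases. In these counts too, Nr3c1 and Klf9 entered with 2 probes each.

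The difference between the groups was also taken within each slide, 2 tumours against 2. For 9 of the 12 probes the direction differed between the slides, and for the other 3 (both Nr3c1 probes and Fkbp5) it was the same. Zbtb16 was at -2.75 ± 1.05 (SE) on slide 1 and 1.79 ± 1.05 on slide 2. The better Klf9 probe, A_65_P19780, was at -1.67 ± 0.58 and 0.58 ± 0.58, and A_55_P1994992 at -1.82 ± 0.47 and 0.62 ± 0.47. Lower on slide 1 and higher on slide 2 were also Tsc22d3 (-1.66 and 0.41), Mt1 (-0.70 and 0.63) and Mt2 (-1.43 and 0.80). Sgk1 (0.54 and -0.35) and Errfi1 (0.49 and -0.035) went the other way, Pdk4 was at -0.061 and 0.45, and Fkbp5 at 0.20 and 0.17. The interaction of treatment and slide had an unadjusted limma p under 0.05 for 4 of the 12 probes, against 1.5% of all probes. These were Zbtb16 (0.0237), both Klf9 probes (0.0111 and 0.0344) and Mt1 (0.0406). None passed adjustment over all probes (adjusted p = 0.997 for each). The Klf9 probes read the same gene in the same tumours and are not separate evidence. Slide 1 holds AZD1480 replicate 1, and without that tumour 2 probes had an unadjusted interaction p under 0.05. The share of all probes was not counted in that setting.

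**Figure D2:**
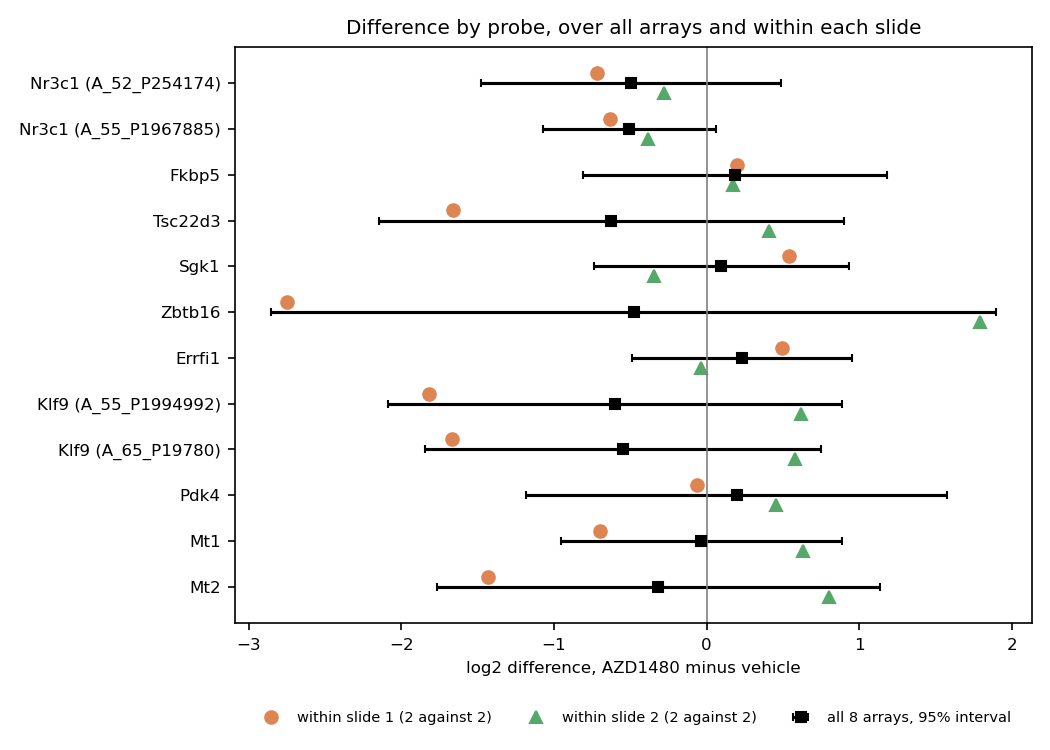
Log2 difference, AZD1480 minus vehicle, for each of the 12 probes over all 8 arrays (square, with the 95% interval of limma) and within slide 1 (circle) and slide 2 (triangle), 2 tumours against 2. Every interval includes 0, and the slide values lie on opposite sides of 0 for Tsc22d3, Zbtb16, Klf9, Mt1 and Mt2, at -2.75 and 1.79 for Zbtb16.

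Across the 8 tumours, whatever their group, Pearson r between genes was positive for 27 of 45 pairs. With so few tumours, a pair that did not pass the test below is not shown to be unrelated. Pearson and Spearman correlations were computed for all 45 pairs of the 10 genes (the brighter probe of Nr3c1 and Klf9), with two-sided exact permutation p-values adjusted over the 45 pairs. Mt1 and Mt2 were the 1 pair that passed, with r = 0.925 (exact permutation p = 2.48e-05, adjusted p = 0.00112) and rho = 1.00 (exact p = 4.96e-05, adjusted p = 0.00223), the same order of tumours for both genes. Leaving out the 2 tumours farthest from the Mt1 median gave r = 0.942, leaving out AZD1480 replicate 1 gave r = 0.950 (adjusted exact p = 0.00893), and centring each slide gave r = 0.925 (adjusted exact p = 0.0781). The centred test used only the 576 orderings within slides, and its exact p of 0.00174 was the smallest possible. Mt1 and Mt2 could therefore not have passed it as a single pair. The 2 genes are close paralogs, and how far the probe of 1 also reads the transcript of the other was not tested.

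Tsc22d3, Zbtb16, Klf9, Mt1 and Mt2 had positive correlations in 10 of 10 pairs, with r from 0.69 to 0.93 and rho from 0.43 to 1.00. This grouping was made after the values were seen and is a description. All 5 were low in AZD1480 replicate 1 and vehicle replicate 3 relative to their own means and high in AZD1480 replicate 3. Without AZD1480 replicate 1 the 10 values of r were 0.40 to 0.95, centred within slide 0.66 to 0.98, and without the 2 tumours farthest from the median of the first gene of each pair 0.095 to 0.94. Tsc22d3 and Klf9 had r = 0.823 (exact p = 0.00910, adjusted p = 0.102; rho = 0.738, exact p = 0.0458, adjusted p = 0.470), and r = 0.799 without AZD1480 replicate 1. Zbtb16 and Mt2 had r = 0.893 (exact p = 0.00610, adjusted p = 0.102; rho = 0.619, exact p = 0.115, adjusted p = 0.470), but r = 0.259 without the 2 tumours farthest from the Zbtb16 median, so that value rests on those tumours.

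Fkbp5, Sgk1 and Pdk4, which were highest in AZD1480 replicate 1, had r from 0.51 to 0.70 among themselves, and 0.18 to 0.51 without that tumour. Fkbp5 and Tsc22d3 had r = -0.505 (exact p = 0.201, adjusted p = 0.439; rho = -0.286, exact p = 0.501, adjusted p = 0.935), and r = 0.143 without AZD1480 replicate 1. Pdk4 and Klf9 had r = 0.209 over all 8 tumours (exact p = 0.619, adjusted p = 0.805; rho = 0.429, exact p = 0.299, adjusted p = 0.748) and r = 0.937 without AZD1480 replicate 1 (adjusted exact p = 0.0402). That correlation was at -0.228 without the 2 tumours farthest from the Klf9 median, AZD1480 replicates 2 and 3.

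**Figure D3:**
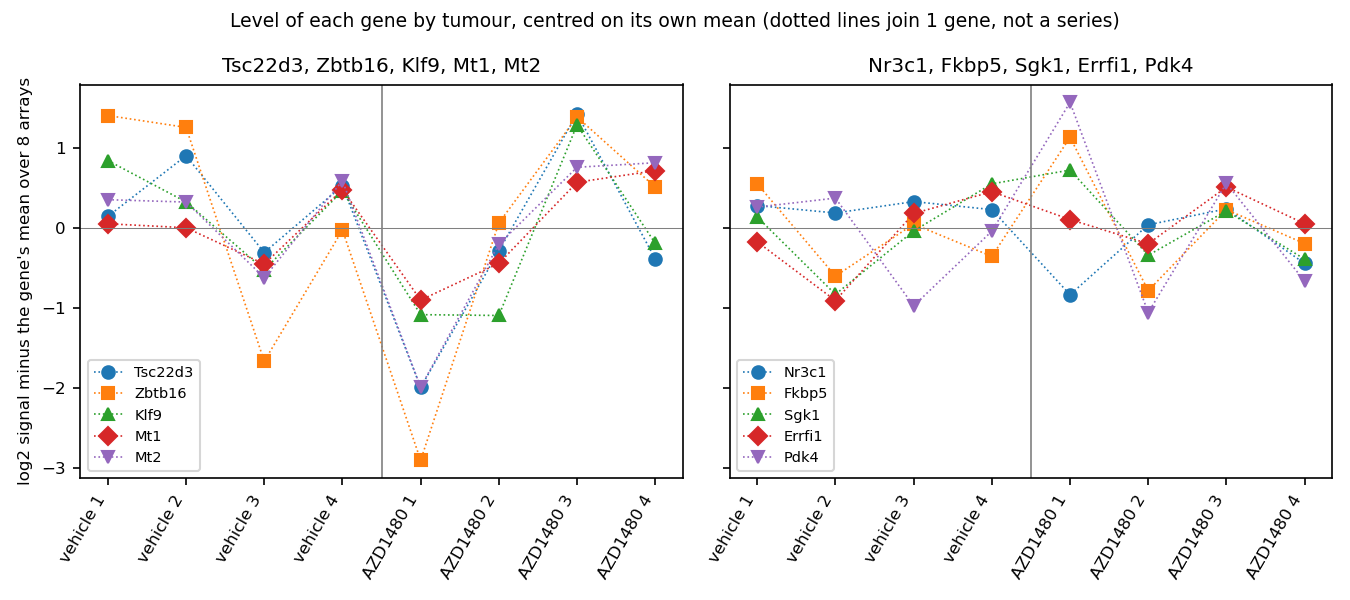
Log2 signal of each gene minus its own mean over the 8 tumours, with Tsc22d3, Zbtb16, Klf9, Mt1 and Mt2 on the left and the other 5 genes on the right. The left genes are all below their means in AZD1480 replicate 1 and above them in AZD1480 replicate 3, and in AZD1480 replicate 1 Fkbp5, Sgk1 and Pdk4 are above their means and Nr3c1 below its mean.

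**Figure D4:**
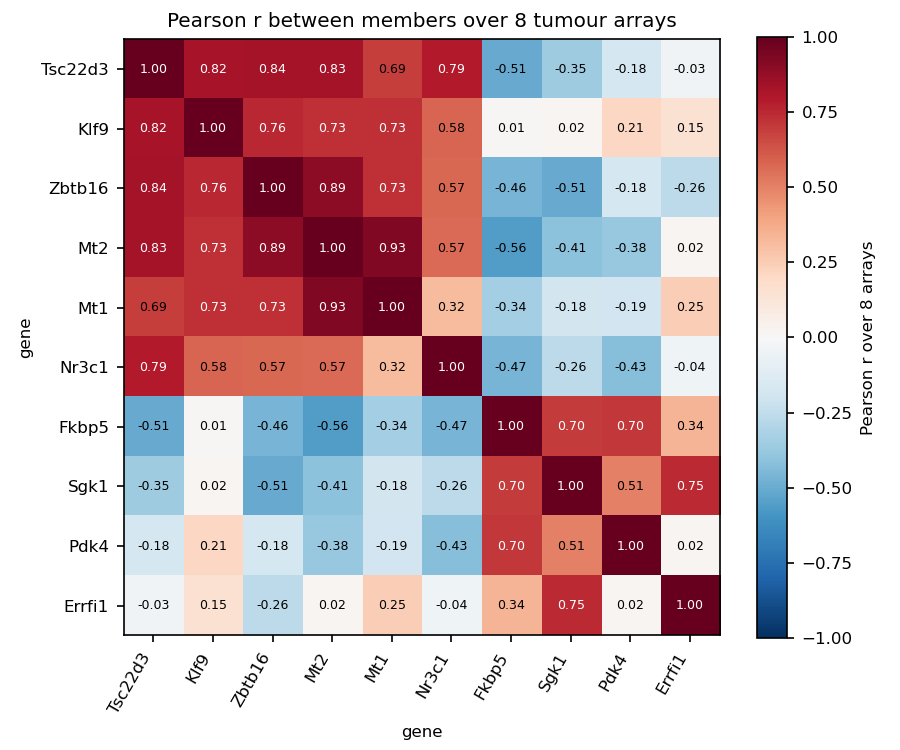
Pearson r over the 8 tumour arrays for each of the 45 pairs of genes, from -1 (blue) to 1 (red). The 10 pairs among Tsc22d3, Klf9, Zbtb16, Mt2 and Mt1 lie between 0.69 and 0.93. Fkbp5 has negative values with Tsc22d3, Zbtb16, Mt1 and Mt2, which were 0.14, 0.19, 0.24 and 0.17 without AZD1480 replicate 1.

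For each gene the 3 genes on the array with the most similar centred levels over the 8 tumours were listed, by the root mean square (RMS) log2 difference among 15653 named genes. Tsc22d3 was closest to Serpinb6b (RMS 0.256), Rnase4 (0.374) and Klf15 (0.375), against a median RMS of 1.05 over all genes. Zbtb16 was closest to Klf15 (0.611), Aox3 (0.612) and Slc17a7 (0.625), with a median of 1.52. Klf15, a Krüppel-like factor that glucocorticoids induce in several tissues, was therefore on both lists. AZD1480 replicate 1 was the lowest tumour for Tsc22d3 (1.44), Zbtb16 (-2.55) and Klf15 (-4.31), and likeness without it was not computed. Klf9 was closest to Tmem140 (0.291), Glul (0.323), which encodes glutamine synthetase, and Lims2 (0.325), with a median of 0.913.

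Mt1 was closest to Ccl4 (0.136), Ppp1r15a (0.155) and Pigz (0.187), and Mt2 to Gnal (0.216), Kiss1r (0.250) and Azin2 (0.256). Their medians over all genes were 0.659 and 0.970. Nr3c1 was closest to Tapbpl (0.094), Il2rg (0.110), a subunit shared by several cytokine receptors, and St8sia2 (0.112), with a median of 0.560. Fkbp5 was closest to Eps15 (0.159), Car13 (0.198) and Lrrk1 (0.199), Sgk1 to Pla2g7 (0.112), Septin9 (0.190) and Samd8 (0.193), Pdk4 to Larp6 (0.245), Deptor (0.287) and Plau (0.293), and Errfi1 to Ptpn21 (0.172), Srxn1 (0.183) and Gars (0.187).

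The rest of the pathway was read from 7 lists with 111 different genes, 100 of which passed the signal filter, each by its brightest probe. Of these, 58 were lower and 42 higher in AZD1480, against 43.8% lower and 56.2% higher over all 19815 genes. By limma 0 of 100 had an adjusted p under 0.05 (0% of all genes), and 2 of 100 had an unadjusted p under 0.05, against 3.47% of all genes. These 2 were Cebpd and Txnip, both lower, against 1.77% of all genes in that direction.

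Other glucocorticoid-induced genes were divided, with 14 of 25 lower and 11 higher and a median difference of -0.13 against 0.043 over all genes. Cebpd, a transcription factor gene that glucocorticoids and cytokine signals both induce, was at 3.68, 3.61, 4.01 and 4.12 in vehicle replicates 1 to 4 and at 2.71, 2.13, 3.03 and 2.18 in AZD1480 replicates 1 to 4. All 4 AZD1480 tumours lay below all vehicle tumours, as for 1.39% of all genes. The difference was -1.34 ± 0.25 (unadjusted p = 0.000681, adjusted p = 0.948), at -1.23 and -1.46 within the slides, and between -1.52 and -1.22 when each array was left out. Ddit4, an inhibitor of mTOR signalling, was at 0.98 ± 0.45 (adjusted p = 0.954), with 4.77 in AZD1480 replicate 1 and 2.79 to 3.66 in the other AZD1480 tumours against 2.01 to 3.28 in vehicle. Hif3a was at 0.70 ± 0.41 and Thbd, which encodes thrombomodulin, at -0.54 ± 0.31. Hif3a was dim, well above background on 3 of 4 vehicle and 2 of 4 AZD1480 arrays, and its difference was 0.41 with normexp. Leaving out AZD1480 replicate 1 gave 0.63 for Ddit4 and 0.32 for Hif3a, and leaving out AZD1480 replicate 4 gave -0.36 for Thbd.

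Among receptor chaperones, coregulators and hormone-metabolising enzymes, 11 of 18 were lower and 7 higher, with a median of -0.030. H6pd, which supplies the cofactor of the enzyme that regenerates active hormone, was at -0.54 ± 0.29 and Hsd11b1, that enzyme, at -0.42 ± 0.36. The mineralocorticoid receptor gene Nr3c2 was at 0.50 ± 0.26 and the coactivator gene Crebbp at 0.47 ± 0.28. Nr3c2 was dim, well above background on 3 of 4 AZD1480 arrays, and its difference was 0.32 with the normexp background correction. H6pd was at -0.32 without AZD1480 replicate 1, and Nr3c2 and Crebbp were at 0.32 and 0.21 without AZD1480 replicate 4. Hsd11b1 ranged from -0.71 to -0.19 as each array was left out, the ends being without vehicle replicate 3 and AZD1480 replicate 2. Hsd11b2, which inactivates the hormone, was below the filter.

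Inflammatory genes that glucocorticoids repress were lower in 9 of 10 cases, against 43.8% of all genes. Their median was -0.14, and 0 of 10 had an unadjusted limma p under 0.05. Mmp13 was at -1.11 ± 0.92 and Icam1 at -0.58 ± 0.63. Both were lowest in AZD1480 replicate 1, and without it were at -0.30 and 0.090. The 1 higher gene, the chemokine gene Cxcl1, was at 0.58 ± 1.72. Within slide 2, Tnf, Ccl2, Icam1, Vcam1 and Mmp3 were higher in AZD1480 (0.14 to 0.85). Il1b, Cxcl1, Ptgs2, Nos2 and Mmp13 were lower there (-1.18 to -0.085). Ptgs2 and Cxcl1 were dim, each well above background on only 2 of 4 AZD1480 arrays. Il1a, Il6, Cxcl2, Sele, Mmp9 and Csf2 were below the filter.

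Zinc and metal handling genes, which share regulators or substrates with the metallothioneins, were lower in 7 of 13 cases and higher in 6, with a median of -0.014. The zinc importer gene Slc39a4 was at 2.25, 1.62, 3.02 and 2.42 in vehicle and at -1.94, 1.17, 2.33 and 1.52 in AZD1480, a difference of -1.56 ± 0.86 that was -0.65 without AZD1480 replicate 1. Slc39a10 was at -0.44 ± 0.31, Slc39a14 at 0.34 ± 0.25 and the heme oxygenase gene Hmox1 at 0.69 ± 0.64. AZD1480 replicate 1 had the lowest value for Slc39a4, as for Mt1 and Mt2, and the highest for Hmox1 (2.63). Hmox1 was at 0.099 without that tumour and at 1.15 without AZD1480 replicate 2. Slc39a14 was at 0.20 and 0.54 without AZD1480 replicates 1 and 3, and Slc39a10 at -0.25 without vehicle replicate 3 and -0.22 without AZD1480 replicate 4.

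Genes of the switch from glucose to fat use, the setting in which Pdk4 is best known, were lower in 6 of 15 cases and higher in 9, with a median of 0.15. Txnip, an inhibitor of glucose uptake, was at 4.12, 3.94, 2.87 and 3.61 in vehicle and at 2.50, 2.74, 3.38 and 2.71 in AZD1480, a difference of -0.80 ± 0.32 (unadjusted p = 0.0351, adjusted p = 0.954). It was at -1.41 on slide 1 and -0.20 on slide 2. Pdha1, the pyruvate dehydrogenase subunit that PDK4 phosphorylates, was at -0.67 ± 0.32, Foxo3 at 0.77 ± 0.57 and Ppard at 0.19 ± 0.17. Leaving out AZD1480 replicate 1 gave -0.40 for Pdha1 and 0.22 for Foxo3, and leaving out AZD1480 replicate 4 gave 0.083 for Ppard.

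Paralogs of the members were lower in 6 of 14 cases and higher in 8, with a median of 0.10. Klf15 was at -0.99, -1.05, -2.66 and -1.59 in vehicle and at -4.31, -2.33, -0.94 and -2.46 in AZD1480, a difference of -0.94 ± 0.70 that was -2.30 on slide 1 and 0.42 on slide 2. It was at -0.34 without AZD1480 replicate 1, its lowest tumour, and at -1.46 without AZD1480 replicate 3. Pdk1 was at 0.52 ± 0.31 (0.29 without vehicle replicate 3, 0.33 without AZD1480 replicate 1) and Mt4 at -0.33 ± 0.28 (-0.13 without vehicle replicate 2, -0.50 without vehicle replicate 3). Mt4 was dim, with levels of -6.25 to -5.13, and its difference was -0.049 with normexp. Of the partners of SGK1 and ERRFI1, 7 of 10 were lower and 3 higher, with a median of -0.020. Egfr, the receptor that ERRFI1 inhibits, was at -0.67 ± 0.29, and Nedd4l, a ubiquitin ligase that SGK1 phosphorylates, at -0.21 ± 0.18 (-0.32 without vehicle replicate 2, -0.12 without vehicle replicate 3), while Erbb3 was at 0.23 ± 0.50 and Hbegf at 0.035 ± 0.33. The direction of the last 2 turned when single arrays were left out.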

How the data were processed

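Per the labels, total RNA of 8 tumours was labelled with Cy3. Spot values came from Agilent Feature Extraction 9.5.3, per the submitters' processing notes. The deposited processed intensity was background-subtracted within each array, per the file headers, with no scaling from array to array. The authors' deposited log2 value table served as an alternative. Log2 processed intensities were centred on the 75th percentile of each array. Unflagged spots of a probe were averaged, and 28329 probes well above background on at least 4 of 8 arrays were tested with limma 3.58.1 in R 4.3.3 (two-sided, Benjamini-Hochberg over all probes, threshold 0.05). Probe positions are those of the files (mm9), and their exon context was not analysed here. Named were all members, the 2 genes per list with the smallest p in each direction, and the 3 genes most like each member. Members, lists and tests were chosen with earlier results of these data known. The labels state 4 mice per group. The code was tested on simulated data. Alternatives covered background, scaling, filter, slide, array weights, probes, replicates and the authors' table.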

Additional observations from a re-analysis of the deposited data

How the results depend on the processing

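Over 19 alternatives 0 member probes, 0 listed genes and 0 of all probes had an adjusted p under 0.05 by limma, and the members' adjusted p ran from 0.528 to 1.00. At an unadjusted p under 0.05 were 0 member probes over all arrays, 2 on slide 1 alone and 0 to 4 when each array was left out, the 4 being Nr3c1, Tsc22d3 and both Klf9 probes without AZD1480 replicate 3. For these 4 probes that tumour was the highest of the AZD1480 group. Lower in AZD1480 were 8 member probes, 4 on slide 2 alone and 7 to 10 when each array was left out. Listed genes at an unadjusted p under 0.05 numbered 2, with 6 on slide 2 alone and 1 to 10 when each array was left out (10 without AZD1480 replicate 3, 4 without AZD1480 replicate 1, 1 without vehicle replicate 2 or 4). Member interactions with slide numbered 4 at an unadjusted p under 0.05, 2 with median scaling and in the authors' table, and 1 to 6 when each array was left out (1 without vehicle replicate 1, 2 or 3 or AZD1480 replicate 3, 2 without AZD1480 replicate 1). The shares of all probes and all genes at an unadjusted p under 0.05 were not counted under the alternatives. Whether calls rose or fell across the whole array as well is therefore not known. Member pairs passing numbered 1, 2 with quantile normalization, 8 in the authors' table, 0 centred within slide, and 1 to 3 when each array was left out (2 without AZD1480 replicate 1, 3 without AZD1480 replicate 4). The 0 does not show a loss of the Mt1 and Mt2 pair, since the centred test has too few orderings (576) for a single pair to pass. The interaction and pair alternatives were chosen after seeing the data. The cause of the other shifts was not tested.

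Whether replicate numbers pair the tumours was not settled, with same-numbered correlations of 0.35, 0.37, 0.14 and -0.06. Vehicle replicates 1, 2 and 3 were each closest to the AZD1480 tumour of their own number. Vehicle replicate 4 was closest to AZD1480 replicate 3 (0.56). With the replicate block 0 member probes passed and 4 listed genes had an unadjusted p under 0.05.

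Directions turned as follows, in log2. On slide 1 alone Pdk4 was at -0.061, Slc39a10 at 0.13, Erbb3 at -0.089 and Hbegf at -0.088. On slide 2 alone Tsc22d3 was at 0.41, Sgk1 at -0.35, Zbtb16 at 1.79, Errfi1 at -0.035, Klf9 at 0.62 and 0.58, Mt1 at 0.63, Mt2 at 0.80, Hsd11b1 at 0.11, Cxcl1 at -0.085, Icam1 at 0.14 and Klf15 at 0.42. With array weights, which gave AZD1480 replicate 1 a weight of 0.216, Fkbp5 was at -0.11, Sgk1 at -0.22, Zbtb16 at 0.58, Pdk4 at -0.073, Mt1 at 0.042, Mt2 at 0.083, Cxcl1 at -0.83 and Hmox1 at -0.019. Leaving out 1 array in turn moved Fkbp5 between -0.16 and 0.48, Sgk1 between -0.17 and 0.29, Zbtb16 between -1.11 and 0.41, Errfi1 between -0.035 and 0.42, Pdk4 between -0.29 and 0.58, Mt1 between -0.28 and 0.26, Mt2 between -0.64 and 0.30, Cxcl1 between -0.84 and 1.72, Icam1 between -0.97 and 0.090, Erbb3 between -0.16 and 0.57 and Hbegf between -0.14 and 0.27. Leaving out AZD1480 replicate 1 turned all of these but Errfi1 (turned without vehicle replicate 2) and Hbegf (without vehicle replicate 1 or 3 or AZD1480 replicate 2 or 3), and other single arrays also turned Sgk1, Pdk4, Mt1 and Cxcl1. Hbegf was at -0.017 with median scaling. Nr3c1 kept its direction under all alternatives run, from -0.67 to -0.31 by A_55_P1967885.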
